A study of Mus musculus with 45 samples.

Results

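The collagen genes of cultured mouse forelimb buds were followed across 45 RNA-seq libraries. The members were the protein-coding genes whose symbol has the collagen form (Col1a1, Col6a2 and so on), leaving out Col10a1, which gave 43 of the 36300 genes in the deposited tables. By collagen type they were 7 fibrillar, 7 cartilage, 9 basement membrane and 20 other collagens, and no measured value was used to choose them. The limb buds came from embryos of CD1 mice, an outbred stock, on gestation day 13, with no genetic change named. Forelimbs were pooled, those of male and female embryos together, and kept in BGJb-based medium in glass bottles gassed with extra oxygen. Each culture received DMSO (vehicle) or bisphenol A (BPA, a plastics monomer that binds estrogen receptors) at 10 or 50 µM, and RNA was taken after 3, 24 or 48 h, with 5 libraries in each of the 9 groups. The title of the series points to endochondral ossification, in which cartilage models turn to bone.

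Libraries held 17.54 to 27.12 M reads counted in genes. Limb mesenchyme was present by its marker Prrx1 (624 ± 60.3 CPM in vehicle at 3 h, mean ± SD, n = 5), early cartilage by Sox9 (453 ± 47.8 CPM) and muscle precursors by Myod1 (83.8 ± 7.33 CPM). CPM is the count of a gene per M reads counted, scaled across all 45 libraries. Markers of epidermis ranged widely within groups, for example from 104 to 1626 CPM summed over 15 markers in vehicle at 24 h, and they are set beside the members they move with. No marker on the 11 lists was at 0 in every library. Each library came from a pool of whole limbs, so fewer cells of a type and less RNA per cell cannot be told apart. Whether replicate libraries stem from different litters or bottles is not stated in the labels, and p-values therefore speak only for the variation among these 5 per group, some of which may be technical.

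Collagens are secreted proteins whose chains wind around each other into a rope-like helix, and they make up much of the extracellular matrix. The fibrillar collagens (types I, III, V and XXIV here) form the fibres of bone, tendon and dermis. Cartilage fibres are built from type II with types IX, XI and XXVII. Sheet-forming type IV with types VII, XV and XVIII belongs to the basement membranes under epithelium and around vessels, muscle and nerve. The remaining types join fibres, form beaded filaments or span the cell membrane. In the limb bud, condensing mesenchyme turns to cartilage and raises type II, while perichondrium, tendon and the later bone collar make type I.

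To show where the members that differed at 48 h with 50 µM begin, the bases before the start of transcription are printed for 6 of them, from the RefSeq promoter table of GRCm38.p6, which held 34 of the 43 members. Capitals mark the promoter motifs that were searched on both strands. The letters searched for the CCAAT box are those of its name. For the GC box, bound by Sp1-type factors, they are GGGCGG. For the box that positions the start site, called the TATA box, they are TATAAA. For the E box of helix-loop-helix factors they are CAGCTG. Each window is 150 bases long and ends at the RefSeq start, except that those of Col4a5 and Col6a1 end 34 and 124 bases earlier, before any coding-transcript exon, and that of Col6a1 is 126 bases long. No motif overlaps another in these windows.
Col3a1, chr1:45311388-45311537, plus strand: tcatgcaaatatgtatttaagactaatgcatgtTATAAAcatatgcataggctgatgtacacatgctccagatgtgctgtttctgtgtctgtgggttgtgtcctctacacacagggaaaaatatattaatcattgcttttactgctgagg
Col5a1, chr2:27886275-27886424, plus strand: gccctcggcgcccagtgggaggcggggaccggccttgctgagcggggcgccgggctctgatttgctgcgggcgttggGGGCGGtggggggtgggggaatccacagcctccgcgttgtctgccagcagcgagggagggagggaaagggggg
Col24a1, chr3:145292322-145292471, plus strand: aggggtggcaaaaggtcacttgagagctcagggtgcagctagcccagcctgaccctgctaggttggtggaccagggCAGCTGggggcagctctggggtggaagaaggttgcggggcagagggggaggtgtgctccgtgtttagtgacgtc
Col4a5, chrX:141475235-141475384, plus strand: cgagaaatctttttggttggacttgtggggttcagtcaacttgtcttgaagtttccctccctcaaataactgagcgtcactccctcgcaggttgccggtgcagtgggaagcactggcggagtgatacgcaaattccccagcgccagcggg
Col6a1, chr10:76726169-76726294, minus strand: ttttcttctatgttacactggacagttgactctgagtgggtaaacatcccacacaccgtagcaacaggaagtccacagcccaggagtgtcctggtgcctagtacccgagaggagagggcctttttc
Col6a2, chr10:76623631-76623780, minus strand: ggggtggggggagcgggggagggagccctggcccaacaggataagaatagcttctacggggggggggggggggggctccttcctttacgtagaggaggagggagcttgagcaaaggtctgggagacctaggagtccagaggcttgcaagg
The Col3a1 window holds the letters of a TATA box, nearer its far end than the start site. That of Col5a1 holds a GC box and that of Col24a1 an E box. The printed windows of Col4a5, Col6a1 and Col6a2 hold none of the 4 motifs. In Col4a5 a GC box lies nearer the start, within the 34 bases not printed. Over the 150 bases before the start, a CCAAT box was in 7 of 34 members (20.6%, against 24.5% of all 32851 promoters in the table). A GC box was in 18 of 34 (52.9%, against 28.6%), a TATA box in 3 (8.82%, against 7.57%) and an E box in 5 (14.7%, against 8.39%). These are matches of letters only. For these shares exons were not left out, unlike in the printed windows. The RefSeq start used lies 49344, 1408 and 804 bases from the deposited gene start for Col25a1, Col27a1 and Col1a2. Several members lie side by side on a chromosome. Col4a1 and Col4a2 run head to head on chromosome 8 with 22 bases of overlap. Col4a3 and Col4a4 are head to head on chromosome 1 with a gap of 71 bases, and Col4a5 and Col4a6 on chromosome X with a gap of 1308 bases. Col6a1 and Col6a2 lie 85161 bases apart on chromosome 10 and are read in the same direction. No source used here states whether counting used the strand, and reads in the overlap of Col4a1 and Col4a2 cannot be told apart.

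In vehicle, Col2a1, the chain of cartilage type II, was the highest collagen per length at every time, and Col1a1, Col1a2 and Col3a1 came next. Levels per length are CPM per kilobase of the longest coding transcript. Col2a1 stood at 1239 ± 90.9 CPM per kb at 24 h and 1905 ± 262 at 48 h (SD, n = 5). Not scaled by length, it was at 2475 ± 281 CPM at 3 h and 9722 ± 1340 CPM at 48 h. The type I chains Col1a1 and Col1a2 stood at 1170 ± 132 and 904 ± 98.1 CPM per kb at 48 h, and the type III chain Col3a1 at 521 ± 48.1. The 3 chains of type IX, which decorates the surface of cartilage fibres, followed at 445 ± 72.8 (Col9a2), 428 ± 58.2 (Col9a1) and 379 ± 60.6 CPM per kb (Col9a3), which did not differ beyond their spread. With the gene length deposited with the counts in place of the transcript, Col1a1 was at 1060 and Col2a1 at 1050 CPM per kb at 48 h, so the order of these 2 genes depends on the length used. On that length Col1a2 was at 389, Col3a1 at 295, Col6a2 at 79.2 and Col26a1 at 44.0 CPM per kb. In the basement membrane group Col4a1 and Col4a2, which together form the most widespread type IV molecule, were highest (68.3 ± 9.53 and 51.4 ± 4.82 CPM per kb at 48 h). Col4a3 and Col4a4, chains of the kidney glomerulus, were near background, with at most 19 and 28 reads in any library. Among the others, Col6a1, Col6a2 and Col26a1 were highest at 48 h (188 ± 18.0, 142 ± 12.2 and 129 ± 8.23 CPM per kb), and Col6a4 had at most 32 reads in a library.

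**Figure D1:**
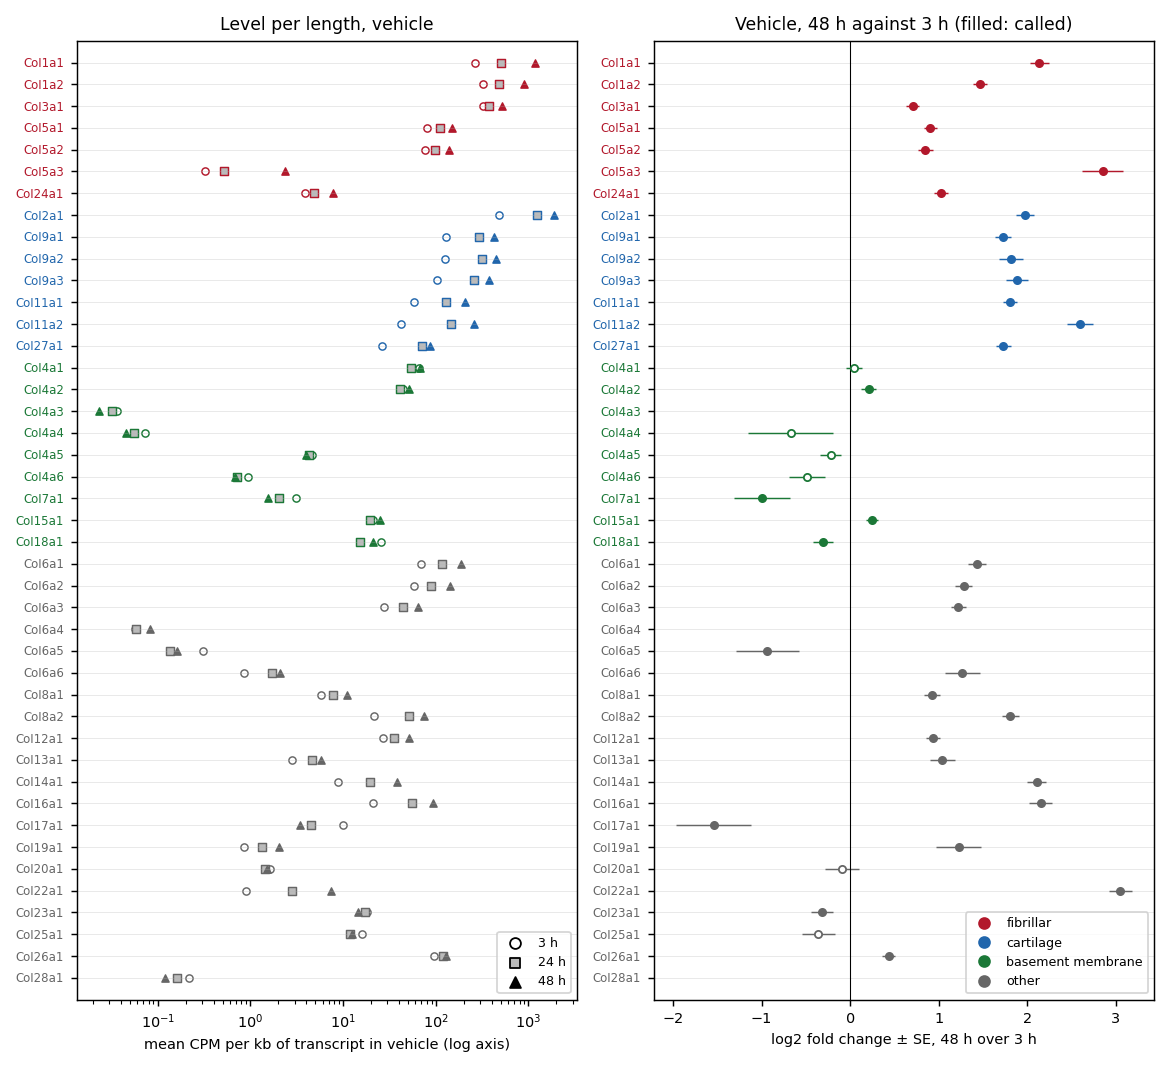
Left, mean level per length of each of the 43 collagens in vehicle (CPM per kb of transcript, log axis; circles 3 h, squares 24 h, triangles 48 h; 5 libraries each). Right, log2 fold change between 48 h and 3 h in vehicle with its SE, filled where adjusted p was under 0.05; the fibrillar and cartilage members lie to the right of 0 and Col7a1 and Col17a1 to the left.

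Time in culture moved most collagens upward in vehicle. From 3 to 24 h, 25 of 41 members tested rose and 3 fell, where 30% of all genes tested were called (16.3% rose and 13.8% fell) (edgeR's quasi-likelihood test, Benjamini-Hochberg adjusted p under 0.05, as in all calls here). All 7 cartilage collagens rose, with a median log2 fold change of 1.34, against 0.48 for the fibrillar group, in which 6 of 7 rose. The largest cartilage change was that of Col11a2, a type XI chain of the fibre core, which rose 3.48-fold (log2 1.798 ± 0.140, SE). Col27a1, a minor fibre-forming collagen of cartilage, rose 2.70-fold (log2 1.43 ± 0.08). In the basement membrane group 0 of 8 tested rose, while Col4a1 (log2 -0.27 ± 0.07) and Col18a1, the precursor of endostatin (log2 -0.73 ± 0.13), fell. Among the others 12 of 19 rose, with Col22a1, a collagen of the junction between muscle and tendon, 3.16-fold and Col16a1, a fibre-associated collagen, 2.64-fold higher. Col6a5 fell (log2 -1.14 ± 0.34), at 2.86 ± 0.86 CPM at 3 h and 1.27 ± 0.56 at 24 h. The call of Col24a1 (adjusted p = 0.042) was lost without vehicle replicate 2, 3, 4 or 5 of 3 h and without replicate 1 or 2 of 24 h (adjusted p up to 0.111).

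Between 24 and 48 h the fibrillar and cartilage collagens rose together. Here 26 of 41 members rose and 0 fell, where 8.45% of all genes were called (5.44% rose and 3.02% fell). All 7 fibrillar members rose (median log2 0.68), and so did all 7 cartilage members (median log2 0.54). Col5a3, a rarer type V chain, rose 4.48-fold from 3.21 ± 1.35 to 14.4 ± 4.56 CPM, and Col22a1 2.62-fold to 65.3 ± 8.74 CPM. The type I chains reached 6940 ± 783 (Col1a1) and 4832 ± 525 CPM (Col1a2). Col14a1, a fibre-associated collagen of tendon and skin, rose 1.93-fold to between 222 and 266 CPM. Of the basement membrane group Col4a1, Col4a2 and Col15a1 rose (log2 0.32 ± 0.09, 0.33 ± 0.07 and 0.33 ± 0.07). The call of Col4a1 (adjusted p = 0.0376) was lost without vehicle replicate 1, 2, 4 or 5 of 24 h and without replicate 2, 3 or 5 of 48 h (up to 0.0956). That of Col27a1 (0.0206) was lost without replicate 3, 4 or 5 of 24 h or replicate 2 of 48 h (up to 0.057).

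Over the whole 48 h, 29 of the 40 members tested rose and 5 fell, where 46.7% of all genes were called (23.9% rose and 22.9% fell). Col22a1 rose 8.30-fold, Col5a3 7.23-fold, Col11a2 6.04-fold, Col16a1 4.44-fold and Col14a1 4.30-fold. The 5 that fell were Col7a1 (2-fold), Col17a1 (2.91-fold), Col18a1 (1.24-fold), Col23a1 (1.25-fold) and Col6a5 (1.91-fold). Col7a1 forms the anchoring fibrils and Col17a1 the transmembrane anchors of the epidermis, and the level of Col17a1 had the same order over libraries as the summed epidermal markers. In vehicle at 24 h Col17a1 was at 53.6, 15.9, 44.7, 6.33 and 4.4 CPM in replicates 1 to 5, and the markers summed to 1626, 343, 865, 110 and 104 CPM in the same order. At 48 h Col17a1 was at 25.5, 34.5, 25.1, 2.76 and 7.55 CPM and the markers at 670, 794, 452, 58.7 and 239 CPM. The libraries high in Col17a1 were those high in epidermal markers, and the part of epidermal content in the fall was not tested. The calls of Col18a1, Col6a5, Col23a1 and Col4a2 over 48 h (adjusted p = 0.0387, 0.0382, 0.0397 and 0.0449) were lost without single libraries. For Col18a1 these were 3 h replicates 1, 2, 3 or 5 and 48 h replicates 1, 3, 4 or 5 (adjusted p up to 0.117), and for Col6a5 3 h replicates 1 to 4 and 48 h replicates 1, 2, 4 or 5 (up to 0.0881). For Col23a1 they were 3 h replicates 1, 2, 3 or 5 and 48 h replicates 4 or 5 (up to 0.0855), and for Col4a2 3 h replicates 2, 3 or 4 and 48 h replicates 1, 2, 3 or 5 (up to 0.127). In the fit of all 45 libraries Col7a1 and Col18a1 were not called, and with upper-quartile factors Col4a2 was not.

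**Figure D2:**
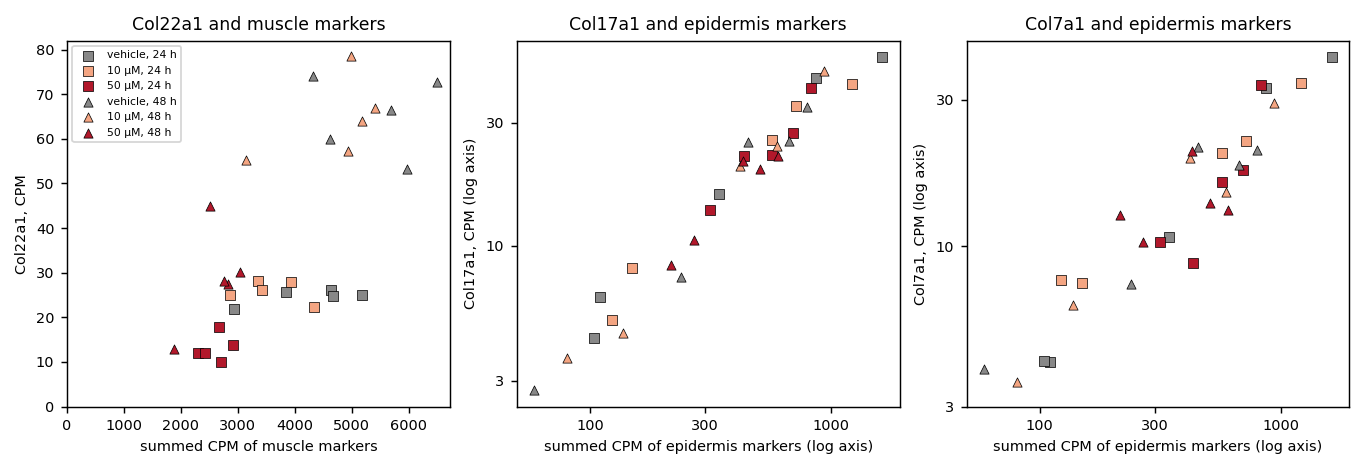
Each point is 1 library of 24 h (squares) or 48 h (triangles), grey for vehicle, orange for 10 µM and red for 50 µM. Col22a1 is plotted against 15 summed muscle markers on linear axes, and Col17a1 and Col7a1 against 15 summed epidermal markers on log axes; the Col17a1 points rise with the epidermal markers, from 2.76 CPM at 58.7 to 53.6 CPM at 1626.

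After 3 h of 50 µM bisphenol A no collagen passed the test. By edgeR 0 of 41 members were called, where 1.41% of all genes were, and 3 had an unadjusted p under 0.05. DESeq2 called 1, Col20a1, a little-studied fibre-associated collagen (adjusted p = 0.0147), which edgeR placed at log2 0.52 ± 0.14 (adjusted p = 0.0757). It was called by edgeR too when replicate 3 of the 50 µM group was left out. Col20a1 stood at 7.16 to 9.07 CPM in vehicle and at 9.275 to 14.35 CPM with 50 µM, without overlap. At 24 h Col20a1 was again without overlap (log2 0.44 ± 0.13) and was called by DESeq2 (adjusted p = 0.0298) and not by edgeR (adjusted p = 0.0906). On the log2 scale, medians by type at 3 h were -0.009 (fibrillar), 0.043 (cartilage), 0.027 (basement membrane) and 0.015 (other), against -0.002 for all genes.

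At 24 h, 4 of 40 members tested fell with 50 µM and 0 rose, where 3.47% of all genes were called (2.1% fell and 1.37% rose). They were Col22a1, Col15a1, Col6a2 and Col3a1. DESeq2 called 11 at 24 h (3 higher and 8 lower, where it called 5.99% of all genes) and the fit with an epidermal covariate 7, all lower (4.26% of all genes). The replicate block gave 12 (2 higher and 10 lower, 7.01% of all genes). The numbers missed the rule for pairing given under data processing, as 1 pair correlated at 0.0356. The other 4 of 5 pairs were above 0.1, and 8 of 10 libraries correlated best with their own number. At 48 h, 11 of 40 fell and 1 rose, where 9.18% of all genes were called (5.3% fell and 3.88% rose). The 11 were 5 of 7 fibrillar collagens (Col1a1, Col1a2, Col3a1, Col5a1 and Col24a1), Col15a1, and Col6a1, Col6a2, Col6a6, Col14a1 and Col22a1 among the others, and the 1 that rose was Col4a5. The replicate numbers paired the libraries of this comparison, and with them as a block 20 members were called, 14 lower and 6 higher, where 15.5% of all genes were called. Without 1 library the count at 48 h lay between 5 and 12, and it fell to 6 without vehicle replicate 5 and to 7, 5, 7 and 6 without 50 µM replicates 1, 3, 4 and 5.

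**Figure D3:**
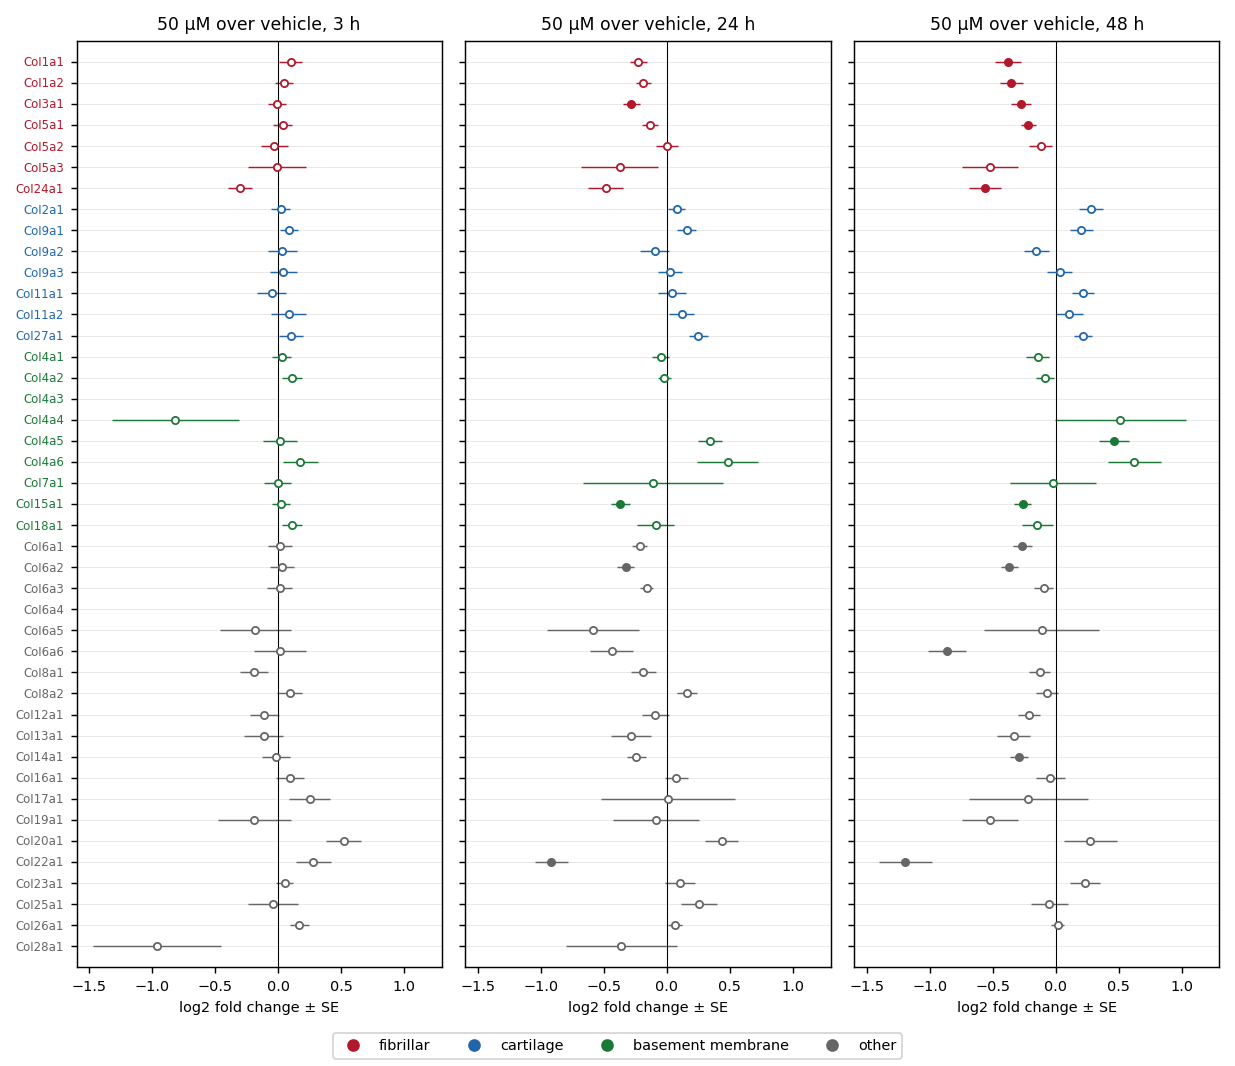
Log2 fold change between 50 µM bisphenol A and vehicle with its SE at 3, 24 and 48 h, 5 libraries a group, for the 40 or 41 members tested, coloured by collagen type and filled where adjusted p was under 0.05. At 48 h the 7 fibrillar members lie left of 0 and 6 of 7 cartilage members right of 0.

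The fibrillar collagens were lower at 48 h. Their median log2 fold change with 50 µM was -0.35, against -0.005 over all genes, and each of the 7 lay below 0. Col1a1, the main chain of type I (chromosome 11, 94936224 to 94953042 in mm10), was at 6907, 7925, 6609, 5863 and 7396 CPM in vehicle replicates 1 to 5 and at 4222, 6656, 5073, 5263 and 5671 CPM with 50 µM. Only replicate 2 of the treated group reached into the vehicle range. The difference was 1.3-fold (log2 -0.38 ± 0.11, adjusted p = 0.0327). Its partner chain Col1a2 (chromosome 6, 4504814 to 4541544) ranged from 4064 to 5462 CPM in vehicle and from 3229 to 4602 with 50 µM, 1.28-fold lower (log2 -0.35 ± 0.09, adjusted p = 0.023). Col3a1, the type III chain of loose connective tissue (chromosome 1, 45311538 to 45349706), fell at both times. At 24 h it was at 1926, 2154, 2153, 2041 and 2049 CPM in vehicle and 1582, 1714, 1945, 1727 and 1577 with 50 µM (log2 -0.28 ± 0.07, adjusted p = 0.0323). At 48 h the fall was of the same size (log2 -0.28 ± 0.08, adjusted p = 0.0376). At each time 1 treated library lay within the vehicle range, replicate 3 at 24 h and replicate 2 at 48 h.

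Col24a1, a low-level fibrillar collagen of forming bone (chromosome 3, 145292472 to 145552011), differed most of the fibrillar members called. Vehicle libraries held 53.2, 61.3, 60.5, 49.8 and 55.8 CPM at 48 h, and those with 50 µM 24.8, 44.2, 41.0, 45.9 and 35.4 CPM. The groups did not overlap, and the difference was 1.48-fold (log2 -0.56 ± 0.13, adjusted p = 0.0105). At 24 h it was log2 -0.485 ± 0.14 with adjusted p = 0.068, and at 3 h -0.30 ± 0.095 with adjusted p = 0.146, so neither passed the test. Col5a1, the type V chain that sets fibre diameter (chromosome 2, 27886425 to 28039514), was at 1175 to 1362 CPM in vehicle and 966 to 1172 with 50 µM, without overlap (log2 -0.22 ± 0.06, adjusted p = 0.0322). Its partner Col5a2 was at log2 -0.12 ± 0.10 and was not called. Col5a3 (log2 -0.52 ± 0.22, adjusted p = 0.168) was called only with the replicate block (-0.51, adjusted p = 0.00595). Single libraries decided most of these calls. That of Col24a1 held in all 10 fits that left out 1 library, while Col1a1 and Col1a2 lost theirs without vehicle replicate 2 or 5 or 50 µM replicate 1, 3, 4 or 5 (and Col1a1 without vehicle replicate 1), with adjusted p up to 0.0787 and 0.0609. Col3a1 and Col5a1 lost theirs at 48 h without vehicle replicate 2, 3 or 5 or 50 µM replicate 1, 3 or 5 (and Col3a1 without 50 µM replicate 4, Col5a1 without replicate 2), with adjusted p up to 0.103 and 0.0838. At 24 h Col3a1 held its call only without vehicle replicate 1 or 50 µM replicate 3 (otherwise up to 0.104).

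At 48 h the sum of 11 osteoblast markers was 670 to 1179 CPM in vehicle and 366 to 873 CPM with 50 µM, with overlap. Of 9 tested, 1 was called lower, where 5.3% of all genes fell. At 24 h the sums were 324 to 505 and 210 to 272 CPM. The osteoblast marker Sp7 was at 25.8 ± 3.2 CPM in vehicle and 23.3 ± 2.02 with 50 µM at 24 h (mean ± SD). At 48 h it was at 41.8 ± 5.42 and 39.9 ± 9.14 CPM. Tendon markers summed to 1885 to 2428 CPM in vehicle at 48 h and 1624 to 2124 with 50 µM, with 3 of 9 lower, and markers of dermal and loose connective fibroblasts to 1928 to 2133 and 1850 to 2013 CPM, with 2 of 10 lower. The part of these cells in the fibrillar values was not tested.

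The cartilage collagens lay mostly above 0 with 50 µM, without passing edgeR's test at its main settings. At 48 h 0 of 7 were called, 6 of 7 lay above 0 and the median log2 fold change was 0.20. Col2a1 (chromosome 15, 97975602 to 98004695) was at 10373, 11570, 8251, 9780 and 8638 CPM in vehicle and at 11118, 14283, 11572, 11301 and 11110 CPM with 50 µM. The lowest treated library lay above 4 of 5 vehicle libraries. The difference of log2 0.28 ± 0.10 missed the threshold (adjusted p = 0.0826, 95% interval 0.093 to 0.465), and it passed with the replicate block (0.28, adjusted p = 0.00045), with DESeq2 (adjusted p = 0.0193), with no filter on low counts (0.0246) and in a fit of all 45 libraries. It also passed without vehicle replicate 2. With the block, 3 more cartilage members passed: Col9a1 (0.21, adjusted p = 0.0118), Col11a1 (0.21, adjusted p = 0.0107) and Col27a1 (0.22, adjusted p = 0.00342). Without it these were at log2 0.20 ± 0.09, 0.22 ± 0.09 and 0.22 ± 0.07. DESeq2 called Col27a1 at 24 h (0.255, adjusted p = 0.0279) and at 48 h (0.22, adjusted p = 0.0204). Col9a2 was the member on the other side, at log2 -0.15 ± 0.10. Chondrocyte markers outside the collagens summed to 3876 to 5221 CPM in vehicle at 48 h and 4439 to 5871 CPM with 50 µM. Of these markers 2 of 12 were called higher and 1 lower, where 3.88% of all genes rose and 5.3% fell. At 24 h the median of the cartilage group was 0.08 and edgeR called 0 of 7.

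**Figure D4:**
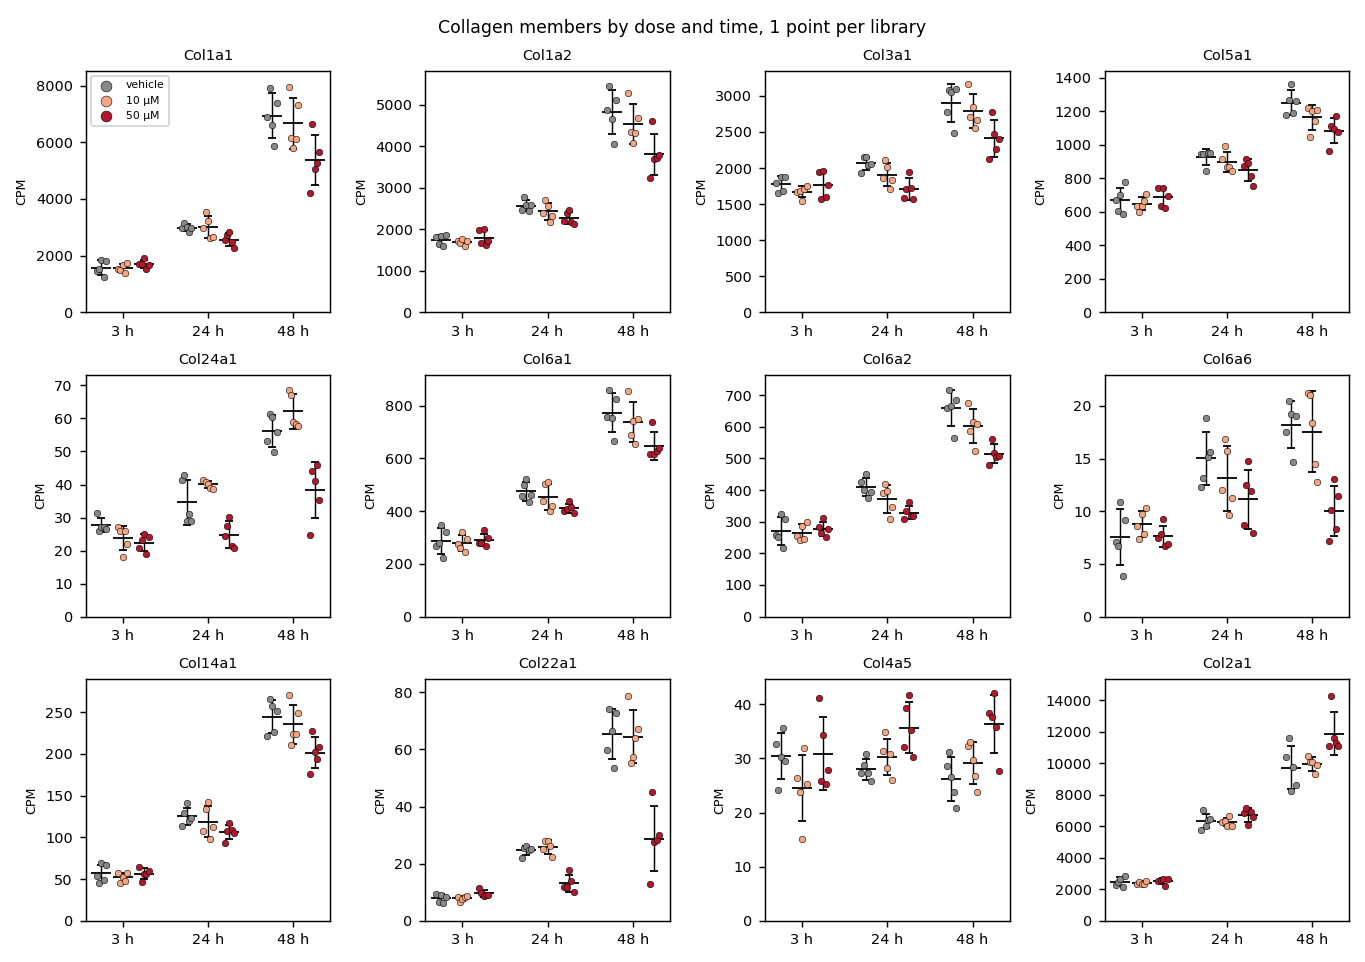
CPM of 12 collagens in each library (points) with mean (line) and SD (whisker), at 3, 24 and 48 h in vehicle (grey), 10 µM (orange) and 50 µM (red), 5 libraries a group. At 48 h the red points of Col24a1, Col6a2, Col6a6 and Col22a1 lie below all grey points, 4 of the 5 red points of Col4a5 lie above all grey points, and those of Col2a1 overlap the grey ones.

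Of the basement membrane collagens tested, 1 of 8 was called higher and 1 lower at 48 h with 50 µM (median log2 -0.055). Of all genes 3.88% rose and 5.3% fell, and these counts are not read as a result about the group. Col4a5, a type IV chain of specialised membranes such as those of epidermis and kidney (chromosome X, 141475385 to 141689234), was the only collagen called higher by edgeR at its main settings. With the replicate block Col4a6, Col2a1, Col9a1, Col11a1 and Col27a1 were called higher too. Col4a5 stood at 28.7, 31.2, 26.6, 23.8 and 20.8 CPM in vehicle and at 38.4, 37.6, 42.0, 35.9 and 27.7 CPM with 50 µM. All but replicate 5 of the treated group lay above the vehicle range, and the rise was 1.38-fold (log2 0.46 ± 0.12, adjusted p = 0.0219). The call was lost without vehicle replicate 4 or 50 µM replicate 3 (adjusted p up to 0.0634). Col4a6, its head-to-head neighbour and partner chain (chromosome X, 141165403 to 141474076), was at 2.58 to 5.81 CPM in vehicle and 5.77 to 8.04 with 50 µM. It was not called (log2 0.63 ± 0.21, adjusted p = 0.0769), but passed with the block (0.66, adjusted p = 0.0122) and with DESeq2. Vehicle replicates 4 and 5, with 2.58 and 3.46 CPM of Col4a6, were also the 2 lowest in summed epidermal markers (58.7 and 239 CPM). Epidermal sums at 48 h ranged from 58.7 to 794 CPM in vehicle and from 216 to 602 with 50 µM, with 0 of 15 markers called. In a fit with the epidermal markers as a covariate 13 members were called at 48 h, Col4a6 being the 1 added. The cause of this gain was not tested.

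Col15a1, a proteoglycan collagen around muscle fibres and capillaries (chromosome 4, 47208161 to 47313167), fell at both times. At 24 h it was at 88.1, 116, 97.35, 104 and 99.4 CPM in vehicle and 76.3, 75.3, 82.9, 83.7 and 74.3 with 50 µM. The groups did not overlap, with a difference of 1.29-fold (log2 -0.37 ± 0.07, adjusted p = 0.0126). At 48 h it was 1.20-fold lower (log2 -0.26 ± 0.07, adjusted p = 0.0256), with groups that overlapped by 1 treated library, and that call was lost without vehicle replicate 2 or 5 or 50 µM replicate 1, 3 or 5 (adjusted p up to 0.0712). Col4a1 and Col4a2 were at log2 -0.14 ± 0.09 and -0.09 ± 0.07 and were not called. Endothelial markers summed to 256 to 401 CPM in vehicle at 48 h and 286 to 361 with 50 µM, with 0 of 11 called. Col7a1 was at 3.99 to 21.1 CPM in vehicle and 10.3 to 20.5 with 50 µM, a difference of log2 -0.02 ± 0.34.

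Of the other collagens, 2 of 19 tested fell at 24 h and 5 of 18 at 48 h, and 0 rose, where 2.1% and 5.3% of all genes fell. Col22a1 (chromosome 15, 71795795 to 72034227) had the largest change among the members tested at 24 and 48 h. At 24 h it was at 21.9, 25.6, 26.05, 24.7 and 25.05 CPM in vehicle and 11.95, 12.0, 17.9, 13.8 and 10.0 with 50 µM, 1.89-fold lower (log2 -0.92 ± 0.13, adjusted p = 0.00146). At 48 h it was at 59.9, 74.1, 66.4, 53.3 and 72.7 CPM in vehicle and 12.9, 44.95, 27.6, 28.1 and 30.1 with 50 µM, 2.29-fold lower (log2 -1.19 ± 0.21, adjusted p = 0.002). The groups did not overlap at either time, and the call held in every fit that left out 1 library. At 3 h the value was 0.28 ± 0.14 and was not called, and the effect at 24 h differed from that at 3 h in the test of the difference itself (log2 -1.20 ± 0.24, adjusted p = 0.00545). Muscle markers were lower in the same libraries. Over 15 markers they summed to 2924 to 5184 CPM in vehicle and 2295 to 2922 with 50 µM at 24 h. At 48 h they summed to 4326 to 6490 and 1880 to 3046 CPM, with 12 of 15 called lower, where 5.3% of all genes fell. The muscle sums of vehicle and 50 µM did not overlap at either time, so muscle content and treatment cannot be told apart in these values. The muscle precursor marker Myod1 was at 118 ± 25.5 CPM in vehicle and 115 ± 16.7 with 50 µM at 24 h (mean ± SD), and at 112 ± 20.3 and 107 ± 12.5 at 48 h. Myog, also on the muscle list, was at 190 ± 22.8 and 173 ± 14.7 CPM at 24 h and 196 ± 35.3 and 162 ± 35.3 at 48 h. The part of muscle content in the Col22a1 values was not tested.

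Type VI collagen forms beaded filaments around cells, from Col6a1, Col6a2 and another chain, mostly Col6a3. Col6a2 (chromosome 10, 76595762 to 76623630) fell at both times. At 24 h it was at 425, 401, 452, 376 and 395 CPM in vehicle and 309, 334, 362, 318 and 319 with 50 µM (log2 -0.33 ± 0.07, adjusted p = 0.0142). At 48 h it was at 661, 717, 667, 566 and 685 CPM in vehicle and 480, 561, 518, 506 and 507 with 50 µM (log2 -0.37 ± 0.07, adjusted p = 0.002). The groups did not overlap at either time. Col6a1, its neighbour (chromosome 10, 76708792 to 76726168), was at 667 to 859 CPM in vehicle at 48 h and 616 to 740 with 50 µM (log2 -0.26 ± 0.07, adjusted p = 0.0322). Col6a3 was at 588 to 699 and 530 to 692 CPM and was not called (log2 -0.10 ± 0.07, adjusted p = 0.474). Col6a6, a low-level alternative to Col6a3 (chromosome 9, 105687809 to 105828160), was at 17.5, 20.5, 19.2, 14.7 and 19.1 CPM in vehicle and 7.2, 10.1, 13.1, 8.3 and 11.5 with 50 µM. It fell 1.82-fold without overlap (log2 -0.86 ± 0.15, adjusted p = 0.00177). Col6a4, below the filter on low counts, stood at 0.61 ± 0.34 CPM in vehicle and 0.089 ± 0.043 with 50 µM at 48 h, and was called only in the fit of 2 groups without that filter and in the fit of all 45 libraries. The call of Col6a1 was lost without vehicle replicate 1, 2 or 5 or 50 µM replicate 1, 3, 4 or 5 (adjusted p up to 0.0828) and in the fit of all 45 libraries (0.0732), while those of Col6a2 and Col6a6 held in every fit that left out 1 library.

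Col14a1 (chromosome 15, 55307750 to 55520803) was at 222, 266, 258, 226 and 251 CPM in vehicle at 48 h and 176, 228, 202, 194 and 208 with 50 µM. Only treated replicate 2 lay within the vehicle range (log2 -0.29 ± 0.07, adjusted p = 0.0179), and the call was lost without 50 µM replicate 4 and in the fit of all 45 libraries (0.0798). Col12a1, a relative of Col14a1 in tendon and ligament, was at log2 -0.21 ± 0.09 (adjusted p = 0.146) and passed with the block (-0.22, adjusted p = 0.00306). So did Col19a1, a minor collagen of muscle and vessels (log2 -0.52 ± 0.22, with the block -0.51, adjusted p = 0.0226). Col8a2, Col16a1, Col25a1 and Col26a1 were at -0.07 ± 0.09, -0.04 ± 0.12, -0.05 ± 0.14 and 0.02 ± 0.05 and were not called. Macrophage markers, of cells that take up and break down collagen, summed to 251 to 330 CPM in vehicle at 48 h and 134 to 251 with 50 µM, with 5 of 11 lower. The macrophage marker Csf1r was at 24.9 ± 4.01 CPM in vehicle and 11.4 ± 3.29 with 50 µM at 48 h (mean ± SD). Smooth muscle and pericyte markers summed to 858 to 911 and 756 to 840 CPM (2 of 10 lower), Schwann cell markers to 172 to 202 and 148 to 179 CPM (2 of 9 lower) and erythroid markers to 449 to 780 and 534 to 782 CPM (0 of 8 called). Of all genes tested 5.3% fell at 48 h. The part of these cells in the collagen values was not tested.

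The share of reads in the 43 collagens together was higher at later times and close between vehicle and 50 µM, while the balance of types differed. All collagens took 1.42% ± 0.14 of reads in vehicle at 3 h, 2.49% ± 0.09 at 24 h and 3.90% ± 0.34 at 48 h (SD, n = 5). With 50 µM the share at 48 h was 3.76% ± 0.38. Reads of the cartilage collagens divided by those of the fibrillar collagens came to 0.72 ± 0.04 in vehicle at 3 h and 0.72 ± 0.06 with 50 µM. At 24 h the ratio was 1.26, 1.29, 1.17, 1.3 and 1.25 in vehicle and 1.65, 1.59, 1.26, 1.56 and 1.58 with 50 µM. At 48 h it was 1.11, 1.12, 0.94, 1.21 and 0.85 in vehicle, 1.00, 1.19, 1.25, 1.12 and 1.02 with 10 µM and 1.64, 1.48, 1.57, 1.51 and 1.36 with 50 µM. At 48 h each library with 50 µM lay above every vehicle and 10 µM library, and at 24 h treated replicate 3 lay within the vehicle range. Vehicle was lower at 48 h than at 24 h in this ratio, by means of 1.05 ± 0.15 and 1.25 ± 0.05, whereas the 50 µM means were 1.51 ± 0.11 and 1.53 ± 0.15. These ratios are given as a description, without a test.

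Chains that share a molecule did not all keep their ratio. Ratios of reads between 2 genes are not scaled by length, so only their change between groups is read. Col1a1 over Col1a2 had a mean in vehicle of 0.90 ± 0.10 at 3 h, 1.16 ± 0.03 at 24 h and 1.44 ± 0.02 at 48 h. With 50 µM it was 1.41 ± 0.07 at 48 h, over a range of 1.31 to 1.49 that spans the vehicle values of 1.42 to 1.45. Col6a1 over Col6a2 went from 1.17 ± 0.03 in vehicle to 1.26 ± 0.05 with 50 µM at 48 h, with ranges of 1.13 to 1.20 and 1.19 to 1.32 that overlapped. Col9a1 over Col9a2 was 1.26, 1.21, 1.17, 1.34 and 1.36 in vehicle at 48 h, 1.44, 1.57, 1.35, 1.55 and 1.55 with 10 µM, and 1.73, 1.74, 1.53, 1.47 and 1.63 with 50 µM. The lowest library with 50 µM was above the highest in vehicle, and those with 10 µM overlapped both groups. Col9a3 over Col9a2 was 0.89 ± 0.02, 0.98 ± 0.04 and 1.01 ± 0.06 in the same order. At 3 h the Col9a1 to Col9a2 ratio ranged from 1.12 to 1.71 in vehicle, from 0.82 to 1.41 with 10 µM and from 1.23 to 1.73 with 50 µM. At 24 h it ranged from 0.962 to 1.49 in vehicle and from 1.19 to 1.68 with 50 µM, with overlap. The ratio thus also varied widely between libraries of 1 group. Col4a1 over Col4a2 was 1.36 ± 0.07 in vehicle and 1.31 ± 0.04 with 50 µM at 48 h.

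**Figure D5:**
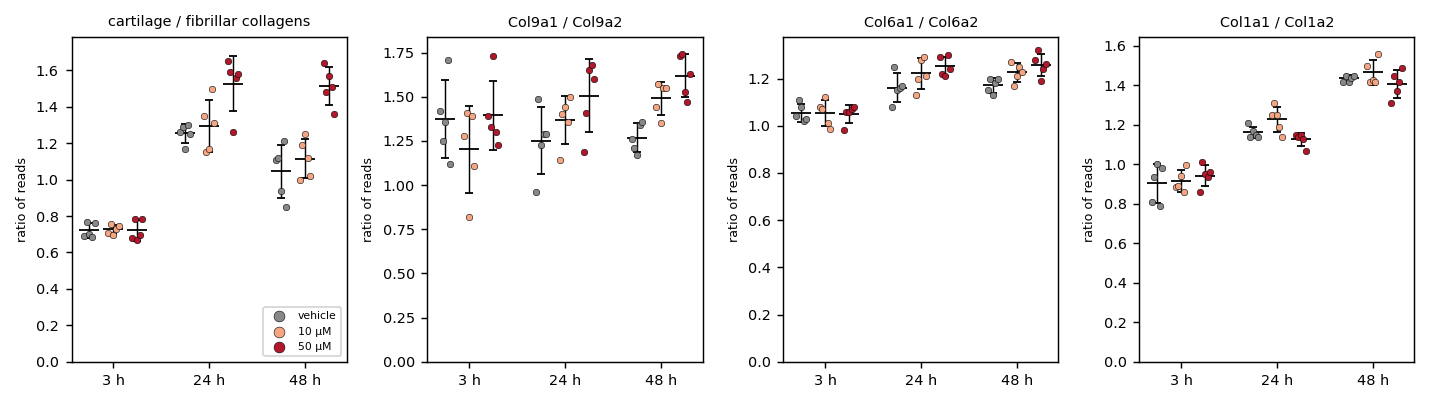
Ratios of reads in each library (points) with mean (line) and SD (whisker) for cartilage over fibrillar collagens, Col9a1 over Col9a2, Col6a1 over Col6a2 and Col1a1 over Col1a2, by time and by dose (grey vehicle, orange 10 µM, red 50 µM), 5 libraries a group. The red points of the first panel lie between 1.36 and 1.64 at 48 h, above all grey points.

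At 10 µM no collagen was called. By edgeR 0 of 41 members tested were called at each of 3, 24 and 48 h, where 0%, 0% and 0.00591% of all genes were, and DESeq2 called 0 too. Unadjusted p was under 0.05 for 4, 2 and 2 members. By the rule on correlations given under data processing, the replicate numbers paired the libraries at 24 and 48 h. At 48 h, however, only 5 of 10 libraries correlated best with their own number, against 10 of 10 at 24 h. With the numbers as a block Col8a2, a short-chain collagen of vessels and cornea, was called at 24 h (log2 0.24, adjusted p = 0.0104), where 0.557% of all genes were. Of the members called with 50 µM at 48 h, those that moved most were close to vehicle at 48 h with 10 µM. Col22a1 was at log2 -0.02 ± 0.10 (95% interval -0.22 to 0.18), Col6a6 at -0.05 ± 0.14 (-0.33 to 0.23) and Col24a1 at 0.15 ± 0.07 (0.00 to 0.29). Col22a1 stood at 78.6, 55.3, 57.3, 64.1 and 67.0 CPM and Col24a1 at 68.6, 67.0, 58.9, 58.3 and 57.8 CPM with 10 µM, within or above the vehicle range of each. This did not hold for every member. In edgeR's fit with the block at 48 h, Col4a6 was at log2 0.66 with 10 µM (adjusted p = 0.11) and 0.66 with 50 µM. Col5a3 was at -0.34 (adjusted p = 0.476) and -0.51 in the same order.

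The doses were also compared directly, on libraries that the comparisons with vehicle use too. At 3 h 0 of 41 members tested were called between 50 and 10 µM, where 0.124% of all genes were (0.0824% higher, 0.0412% lower). At 24 h Col24a1 (log2 -0.68 ± 0.10, adjusted p = 0.00375) and Col22a1 (-0.97 ± 0.13, adjusted p = 0.00249) were lower with 50 µM, 2 of 40 where 0.75% of all genes were called (0.244% higher, 0.506% lower). At 48 h 4 of 40 were called, where 3.29% of all genes were (1.12% higher, 2.17% lower). Col24a1 (-0.70 ± 0.13, adjusted p = 0.00484), Col22a1 (-1.17 ± 0.21, adjusted p = 0.00528) and Col6a6 (-0.81 ± 0.17, adjusted p = 0.0166) were lower, and Col2a1 higher (0.25 ± 0.07, adjusted p = 0.0477). Col2a1 was at 9290 to 10458 CPM with 10 µM and 11110 to 14283 with 50 µM, without overlap. Its call was lost in 9 of 10 fits that left out 1 library, all but the one without 50 µM replicate 2 (adjusted p up to 0.112), and with upper-quartile factors. That of Col6a6 was lost without 10 µM replicate 1 or 50 µM replicate 4 (up to 0.0534). The count was 2 without 10 µM replicate 1 (2.28% of all genes called) and 10 without 50 µM replicate 2 (3.13%). The effect of 50 µM was further compared between times. From 3 to 24 h it changed for Col22a1, given above, and Col15a1 (log2 -0.40 ± 0.09, adjusted p = 0.0246), 2 members where 0.592% of all genes were called (0.0987% higher, 0.493% lower). The Col15a1 call was lost without vehicle replicate 3 or 4 or 50 µM replicate 1 of 3 h, without vehicle replicate 2 or 4 or 50 µM replicate 2 or 5 of 24 h, and in the fit of those 20 libraries alone (0.0731). From 24 to 48 h 0 members were called by edgeR, where 0% of all genes were, so no difference in effect was detectable between these times.

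In culture with vehicle most genes that make and shape collagen rose, with 19 of 21 genes of chain modification and folding higher at 48 h than at 3 h and 0 lower, and 22 of 23 genes of processing, crosslinking and assembly higher and 0 lower, where 23.9% of all genes rose and 22.9% fell. Among them were Creb3l1, a transcription factor of collagen secretion (log2 1.81 ± 0.11), and the fibre-binding proteoglycans Bgn (2.51 ± 0.10), Prelp (3.01 ± 0.15) and Fmod (1.83 ± 0.09). With 50 µM the shares of all genes called, given above, were 1.37% higher and 2.1% lower at 24 h and 3.88% higher and 5.3% lower at 48 h, and list counts of 1 or 2 genes are not read as results about a list. Of 21 folding and modification genes, 4 rose at 48 h and 0 fell. Serpinh1, the collagen chaperone HSP47, rose at both times (log2 0.34 ± 0.07, adjusted p = 0.0109 at 24 h and 0.34 ± 0.06, adjusted p = 0.00166 at 48 h). Fkbp14, a prolyl isomerase, rose too (0.27 ± 0.06 and 0.21 ± 0.05), and at 48 h the lysyl hydroxylase Plod3 (0.19 ± 0.05) and the prolyl hydroxylase subunit P4ha2 (0.48 ± 0.13). At 3 h Plod2, a further lysyl hydroxylase, fell (-0.40 ± 0.09, adjusted p = 0.037), 1 of 21 where 0.518% of all genes fell.

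In the processing and assembly list 6 of 23 fell and 2 rose at 48 h with 50 µM, and at 24 h 4 fell and 0 rose. Pcolce, an enhancer of procollagen cleavage (log2 -0.36 ± 0.06), and Bgn (-0.37 ± 0.07) fell at 24 h. Fmod fell at both times (log2 -0.39 ± 0.08 and -0.65 ± 0.06), as did Kera, a keratan sulfate proteoglycan of fibres (-0.58 ± 0.14 and -0.71 ± 0.15). Postn, a matrix protein of periosteum, and Loxl1, a crosslinking oxidase, fell at 48 h (-0.43 ± 0.08 and -0.33 ± 0.07). Fmod, Kera and Bgn are also on the tendon marker list. Of collagen receptors, 1 of 10 tested rose at 3 h, the fibrillar collagen integrin Itga11 (0.48 ± 0.09, adjusted p = 0.0118). At 24 h Itga11 (0.31 ± 0.07) and Mrc2, which takes up collagen fragments (0.27 ± 0.07), rose, 2 of 10. At 48 h Mrc2 rose (0.25 ± 0.07) while Adgrg1, a receptor for type III collagen (-0.78 ± 0.17), and Itga10, the integrin of cartilage type II collagen (-0.38 ± 0.09), fell. Of the enzymes of collagen breakdown and their inhibitors, Ctsk, the osteoclast collagenase cathepsin K, fell at 24 and 48 h (-0.50 ± 0.09 and -0.71 ± 0.12), and the membrane protease Mmp14 at 48 h (-0.21 ± 0.05), 2 of 11 tested. Of 19 partners in the basement membrane, 2 rose and 2 fell at 48 h. The laminin chain Lama1 (0.86 ± 0.19) and the linker Nid2 (0.26 ± 0.06) rose, and Lama2, the laminin chain of muscle (-0.47 ± 0.08), and Frem2, a protein of the junction between epidermis and dermis (-0.96 ± 0.10), fell.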

How the data were processed

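RNA was measured by poly-A-selected RNA-seq in 45 libraries of pooled GD13 forelimbs. Per the submitters' processing notes the tools were CASAVA 1.8, STAR 2.5, HTSeq 0.6.1 and DESeq2 2 on mm10; their roles, settings and strand use are not given in the sources used here. The authors deposited raw counts of reads per gene in 9 tables, each for 2 groups, holding 30679 to 31290 genes. Of 1345730 counts found in more than one table, 0 differed, and a gene missing from a table was set to 0 where no table gave a count. Counts are of PCR reads without molecular identifiers. Libraries held 17.54 to 27.12 M counts, and replicates differed by more than sampling noise (chi-square per degree of freedom 6.36 to 63.3 over 90 pairs).

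Groups follow the titles. For the 50 µM group of 3 h another label gives 24 hours, and the treatment text names 3 h throughout. Each comparison was fitted across all genes on its 10 libraries with edgeR 4.0.16 in R 4.3.3 (quasi-likelihood test, TMM, filterByExpr with minimum count 10 and total 15, Benjamini-Hochberg adjusted p under 0.05). Differences of effects between times used 1 fit of all 45 libraries. SE is the log2 fold change over the square root of F. The 95% intervals use the normal multiple of that SE and are somewhat narrower than the F test would give. CPM was scaled by TMM over 45 libraries, and levels per length use the longest coding transcript of GENCODE M21, with the deposited gene length as an alternative chosen after seeing the data. The alternatives tried were DESeq2 1.42.0, other size factors, other filters, 1 fit of all libraries, an epidermal covariate, a replicate block and leaving out each library. Scripts were tested on simulated data.

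Replicate numbers in the titles were taken to pair libraries where every same-numbered pair correlated above 0.1 in its deviations from the group means. This held for 50 µM against vehicle at 48 h (0.151 to 0.317) and 10 µM against vehicle at 24 h (0.107 to 0.459) and 48 h (0.154 to 0.505). Per-library values are given for members called with 50 µM at 24 or 48 h and for high-level members, and up to 4 called genes of smallest p per list of collagen-related genes are named. The members, lists and rules were chosen with earlier results of these data known.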

Additional observations from a re-analysis of the deposited data

Results flagged for a closer look

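Single libraries stood apart from the other 4 of their group in 4 of 117 sets of values, made of 13 genes in 9 groups, by Dixon's criterion for 5 samples (0.71). Chance gives about 1 in 20. Col5a1 was lowest in vehicle replicate 3 at 24 h, at 845 CPM against 944 to 951 in the others, and Col24a1 highest in vehicle replicate 1 at 3 h, at 31.2 CPM against 25.9 to 27.2. Replicate 2 of the 50 µM group at 48 h was highest in both Col2a1 (14283 CPM against 11110 to 11570) and Col6a1 (740 CPM against 616 to 640). Without that library 10 members were called between 50 and 10 µM at 48 h, against 4 with it, where 3.13% and 3.29% of all genes were called.

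The effect of 50 µM differed between 3 and 24 h in the test of that difference for Col15a1, by -0.40 on the log2 scale, and for Col22a1, by -1.20. At 3 h these genes were at 0.03 ± 0.07 and 0.28 ± 0.14 against vehicle.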

How the results depend on the processing

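No value reversed under any alternative run. Of 1967 values under the alternatives for members called, for Col2a1 with 50 µM at 48 h and for 5 levels per length, 1837 kept their side of the threshold or their level, 122 lost a call, 5 gained one (all Col2a1; calls gained by other members enter only the counts of members called) and 3 levels per length moved with the deposited length (Col2a1 1050, Col1a2 389 and Col3a1 295 CPM per kb). Counts of members called moved by over 1.5 times in these cases. With DESeq2, 1 was called for 50 µM against vehicle at 3 h, 11 at 24 h, and 10 for 50 against 10 µM at 48 h (3.5%, 5.99% and 5.77% of all genes). With no filter on low counts, 7 were called for 50 against 10 µM at 48 h (2.14%) and 1 for the change of effect from 3 to 24 h, where the fit of 20 libraries also gave 1. With the epidermal covariate, 7 were called for 50 µM at 24 h (4.26%). With the replicate block, 20 were called for 50 µM at 48 h (15.5%) and 1 for 10 µM at 24 h (0.557%), where the numbers paired the libraries. Where they did not, the block gave 12 for 50 µM at 24 h (7.01% of all genes; 8 of 10 libraries correlated best with their own number, as a hint from the data) and 4 for 50 against 10 µM at 24 h (2.7%). Library codes exchange replicates 1 and 2 of 10 µM at 48 h relative to the titles, and the block by codes gave 16 for 50 against 10 µM (8.12%). The block changed no other count by over 1.5 times. The cause of these shifts was not tested. Leaving out 1 library gave 0 to 1, 3 to 6 and 5 to 12 for 50 µM against vehicle at 3, 24 and 48 h, 2 to 2 and 2 to 10 for 50 against 10 µM at 24 and 48 h, 27 to 30, 24 to 26 and 30 to 33 for the vehicle times (24 over 3 h, 48 over 24 h, 48 over 3 h) and 1 to 2 for the change of effect from 3 to 24 h. All other leave-one-out counts were 0. Members with at most 40 reads in any library (Col4a3, Col4a4, Col6a4 and Col28a1) are limited by depth.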
